A study of Mus musculus with 21 samples.

Results

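The regions described here were stretches of the mouse autosomes that carried H3K9me2 in every library of both genotypes, and LaminB1 in WT cells but not in Prdm16 cells. They were chosen from the deposited domain lists as the 1 kb bins covered in all 6 H3K9me2 libraries and in the WT LaminB1 library, and not in the Prdm16 LaminB1 library, with touching bins merged. The rule gave 553 regions that summed to 98.59 Mb. They made up 33.9% of the 290.886 Mb of constant autosomal H3K9me2, which formed 579 regions in all. The LaminB1 values chose the members, so the LaminB1 contrast is a description with no test.

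The study compared fibro-adipogenic progenitors (FAPs), mesenchymal cells of skeletal muscle, from adult mice of 2 genotypes. The Prdm16 group carried floxed alleles (Prdm16Flox/Flox) with Cre-ERT at Pdgfr alpha, a tamoxifen-inducible recombinase driven in cells that express this receptor. The WT group carried the same floxed alleles without the Cre. All mice received tamoxifen for 5 days and were injured with cardiotoxin, a muscle toxin, 7 days later. FAPs were sorted 5 days after injury and grown for 4 to 5 days, so the cells were cultured and no group was uninjured. H3K9me2 had 3 libraries of each genotype, LaminB1 had 1 of each and RNA had 2 Prdm16 and 3 WT libraries. The labels do not say which replicates came from separate animals, and each p-value then measures only the spread among the libraries, which may be technical.

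H3K9me2, dimethylation of lysine 9 on histone H3, is a mark of silent chromatin laid down largely by the EHMT1 and EHMT2 methyltransferases. The sample labels spell the second target LamininB1, which is read here as LaminB1. LaminB1 is a farnesylated filament protein of the nuclear lamina, the mesh under the inner nuclear membrane. Chromatin that can be precipitated with it forms lamina-associated domains, which are long, poor in genes, rich in A and T and often marked by H3K9me2. Prdm16 is a zinc finger protein known for steering mesenchymal precursors toward brown fat and away from muscle.

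Domain lists mark presence or absence over whole stretches, and their read depth is unknown. The 2 LaminB1 libraries differed in total covered length, with 305.2 Mb of autosome in 903 domains in Prdm16 cells and 646.5 Mb in 985 domains in WT cells. Absence from the Prdm16 list therefore does not separate a loss at the locus from a library with fewer or shorter calls: they cannot be told apart with 1 library per genotype. Autosomal H3K9me2 covered 500.2, 800.4 and 676.9 Mb in the Prdm16 libraries and 882.9, 562.0 and 775.7 Mb in the WT libraries. Among RNA libraries, the summed level of 6 FAP markers was 4790 and 4920 counts scaled to library size as CPM in the libraries labelled Prdm16 and 4810, 5200 and 2840 CPM in those labelled WT. The summed level of 7 myoblast markers was 167 and 213 CPM in Prdm16 and 80.4, 83.7 and 240.0 CPM in WT.

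The regions lie away from most promoters, and 4 promoters that do lie in them show the range of sequence found there. Each is 300 bases of RefSeq sequence (GRCm38.p6), from 250 bases before the start site given in the promoter table to 50 after it, on the gene's own strand, with each CG dinucleotide in capitals. Fbxw17 (chr13:50417614-50417913, plus strand), an F-box and WD-repeat protein gene, had the most RNA counts of the protein-coding genes in the regions. Chrna7 (chr7:63212477-63212776, minus strand) encodes a subunit of the nicotinic acetylcholine receptor. Hsd3b6 (chr3:98814394-98814693, minus strand) encodes a steroid-converting dehydrogenase. Vmn1r34 (chr6:66637703-66638002, minus strand) encodes a vomeronasal pheromone receptor. The table's start site is the outer end of the annotated gene for Chrna7, Hsd3b6 and Vmn1r34, and lies 29 bases inside it for Fbxw17.
Fbxw17: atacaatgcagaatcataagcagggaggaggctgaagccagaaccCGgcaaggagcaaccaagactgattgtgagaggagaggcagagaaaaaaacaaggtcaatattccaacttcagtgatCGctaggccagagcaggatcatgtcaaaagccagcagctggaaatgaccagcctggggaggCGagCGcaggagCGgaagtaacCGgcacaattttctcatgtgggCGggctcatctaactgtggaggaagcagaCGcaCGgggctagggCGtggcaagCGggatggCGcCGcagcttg
Chrna7: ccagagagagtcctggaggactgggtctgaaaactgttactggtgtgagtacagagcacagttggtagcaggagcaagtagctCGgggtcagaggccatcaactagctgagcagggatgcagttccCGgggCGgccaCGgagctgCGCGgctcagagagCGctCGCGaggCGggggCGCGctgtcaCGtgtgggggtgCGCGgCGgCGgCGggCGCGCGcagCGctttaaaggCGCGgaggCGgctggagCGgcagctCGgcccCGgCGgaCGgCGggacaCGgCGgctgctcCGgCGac
Hsd3b6: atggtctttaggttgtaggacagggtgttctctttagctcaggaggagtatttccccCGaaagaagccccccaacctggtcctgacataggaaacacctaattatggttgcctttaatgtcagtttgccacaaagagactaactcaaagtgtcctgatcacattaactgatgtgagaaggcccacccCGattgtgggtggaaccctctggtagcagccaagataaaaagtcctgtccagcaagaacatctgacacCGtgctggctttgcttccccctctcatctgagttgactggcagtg
Vmn1r34: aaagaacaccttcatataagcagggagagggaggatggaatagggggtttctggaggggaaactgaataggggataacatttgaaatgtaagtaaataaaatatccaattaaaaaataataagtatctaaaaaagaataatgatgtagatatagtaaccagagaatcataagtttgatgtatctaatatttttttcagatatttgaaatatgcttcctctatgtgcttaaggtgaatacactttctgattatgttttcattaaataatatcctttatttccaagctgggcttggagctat

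The printed Chrna7 promoter holds 35 CG dinucleotides and is 70.0% G and C. Fbxw17 holds 13 CG at 55.3% G and C, Hsd3b6 holds 3 at 49.0% and Vmn1r34 holds 0 at 30.7%. Hsd3b6 stands for the middle of the range. Over the 450 promoters of the table that lay in the regions, which belong to 393 genes and include starts inside longer genes, the median was 3 CG and 46.7% G and C, against 7 CG and 53.0% over all 31396 autosomal promoters. The GC box GGGCGG, searched on both strands, occurred in 9.78% of the promoters in the regions and in 36.0% of all autosomal promoters. The other motifs, also searched on both strands, were closer to the whole. CCAAT occurred in 38.0% in the regions and 37.3% of all, TATAAA in 16.7% and 13.6%, and GAGAGAG in 13.6% and 10.2%. Promoters in constant H3K9me2 with LaminB1 in both genotypes also had a median of 3 CG, at 48.7% G and C, and those with LaminB1 in neither had 3 CG at 45.7%. The low CG count thus went with constant H3K9me2 in these LaminB1 classes, and was not tested between them. Constant H3K9me2 with LaminB1 in Prdm16 alone held only 5 promoters, with a median of 5 CG. The promoter table held no entries for chromosome 18.

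The regions were long. Their length had a median of 148 kb, with quartiles at 68 and 240 kb, a shortest region of 2 kb and a longest of 1436 kb. Of the 553, 521 were at least 20 kb long and 19 at least 500 kb, and the 10 longest together held 8.99 Mb. Constant H3K9me2 with LaminB1 in both genotypes summed to 59.01 Mb (20.3%) in 275 regions with a median of 172 kb. Constant H3K9me2 with LaminB1 in neither summed to 132.06 Mb (45.4%) in 616 regions with a median of 138 kb. The reverse of the rule, LaminB1 in Prdm16 cells alone, summed to 1.22 Mb (0.42%) in 30 regions with a median of 20 kb. These lengths moved when the WT LaminB1 list was cut. With the lowest-scoring WT domains removed until both lists covered equal length, the class in WT alone was 17.66 Mb and its reverse 36.01 Mb. The domains kept had a median of 1780 kb and those removed 296 kb, so the cut changed more than the total length. With WT domains at or above the median score, the class in WT alone was 63.5 Mb and its reverse 5.81 Mb. Just outside the rule, bins with the same LaminB1 pattern and H3K9me2 in 5 of 6 libraries summed to 40.44 Mb in 449 stretches with a median of 51.0 kb. Of that length, 19.96 Mb lacked H3K9me2 only in Prdm16 replicate 1, 11.34 Mb only in Prdm16 replicate 3 and 3.16 Mb only in Prdm16 replicate 2. WT replicates 1, 2 and 3 were the missing library over 0.08, 2.82 and 3.09 Mb. The near misses thus fell most often in Prdm16 replicate 1, which was also the H3K9me2 library with the shortest total.

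**Figure D1:**
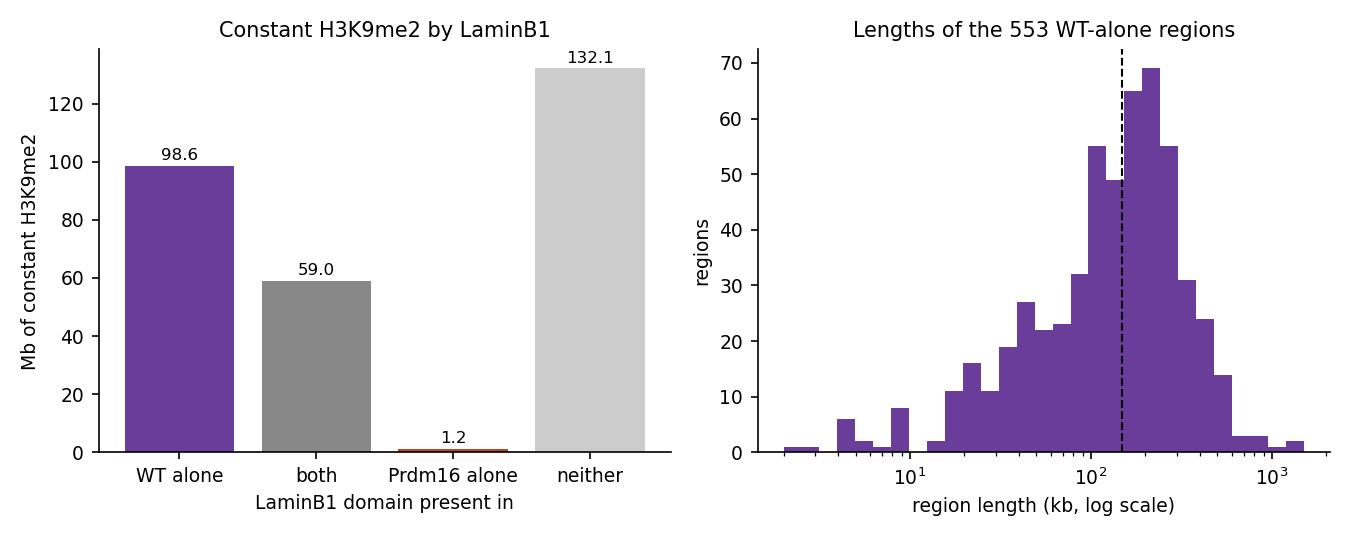
Left, the length in Mb of constant autosomal H3K9me2 by the genotype in which LaminB1 was also present. Right, the number of regions with LaminB1 in WT alone by length in kb on a log scale, with the dashed line at the median of 148 kb. Regions in WT alone hold 98.59 Mb, between those in both genotypes (59.01 Mb) and in neither (132.06 Mb).

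Of 157.6 Mb of WT LaminB1 in constant H3K9me2, 98.59 Mb (62.6%) was in WT alone. This share was 42.2% when the WT list was reduced by score to the length of the Prdm16 list. The shares that follow use the full WT list and were not computed with the reduced list, so 42.2% cannot be set against them. Over the other autosomal sequence the share was 50.9% (248.8 of 488.9 Mb), and over all autosomes it was 53.7%. The share was 31.3% where no H3K9me2 library covered the bin, and 47.0%, 59.1%, 70.6%, 66.8%, 60.8% and 62.6% where 1 to 6 libraries did. The share was thus highest at 3 libraries and lower, though above that of bins with none, where all 6 covered the bin. With 1 LaminB1 library per genotype these shares have no replicate error.

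**Figure D2:**
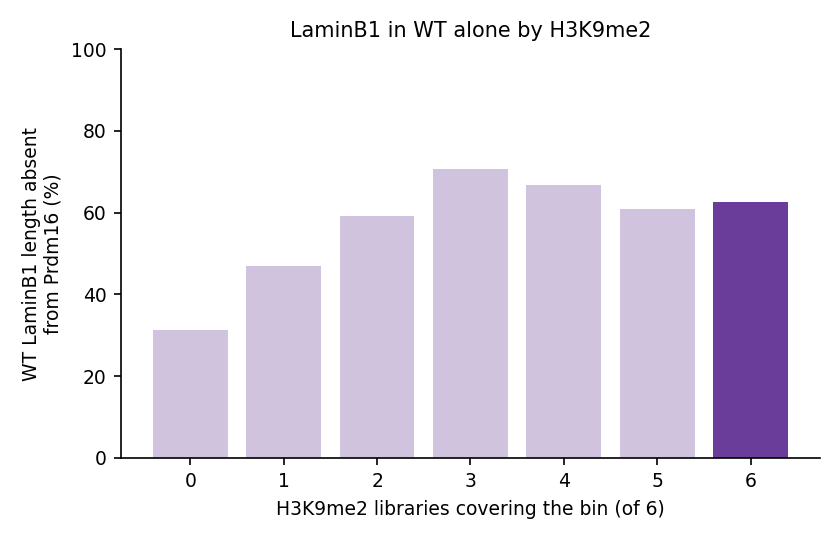
Share in % of the autosomal WT LaminB1 length that was absent from Prdm16 LaminB1, by the number of H3K9me2 libraries covering the bin. The dark bar, bins covered in all 6 libraries, is the class described here at 62.6%, and the highest bar is 70.6% at 3 libraries.

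All 19 autosomes held such regions, in unequal amounts. Chromosome 1 held 9.25 Mb, chromosome 18 held 8.97 Mb and chromosome 6 held 7.34 Mb, while chromosome 19 held 1.75 Mb. The share of WT LaminB1 in constant H3K9me2 that was in WT alone was 87.6% on chromosome 10 and 80.0% on chromosome 18, the highest pair, and lowest on chromosome 11 at 40.5%. Over all WT LaminB1, with or without H3K9me2, the share was 71.5% on chromosome 10, 65.6% on chromosome 18 and 52.7% on chromosome 11. Chromosome 11 was thus below its own whole-chromosome share, and chromosomes 10 and 18 were above theirs. Neither was particular to them. Chromosomes 2, 15 and 16 were also below their own shares and the rest were above, with 59.9% against 37.5% on chromosome 7.

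Regions were mostly parts of larger domains rather than whole domains. They came from 395 of the 985 autosomal WT LaminB1 domains (40.1%). Of the 395, 183 (46.3%) had no Prdm16 LaminB1 anywhere in the domain. Their median length was 228 kb, and they held 40.9 Mb of the regions. The other 212 kept some Prdm16 LaminB1, had a median length of 706 kb and held 57.69 Mb (58.5%) of the regions, and Prdm16 LaminB1 covered a median of 50.4% of each of them. Among all 985 WT domains, 423 (42.9%) had no Prdm16 LaminB1, a share close to that in the 395.

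The authors' WT LaminB1 score per kb, ranked over the autosomal WT domains, was lower where LaminB1 was in WT alone. Over bins, the median percentile of the domain was 34.3 in the regions and 60.8 where constant H3K9me2 had LaminB1 in both genotypes. In 4 equal bands of score per kb, lowest to highest, the share of constant-H3K9me2 WT LaminB1 in WT alone was 79.0%, 69.2%, 57.6% and 31.2%. The weaker the WT call per kb, the more often the Prdm16 library had no call there. The sources used here do not give how the score was made, and its part in the contrast was not tested.

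The edges of the regions fell into 3 kinds. Of 1106 edges, 439 (39.7%) were the end of a WT LaminB1 domain, 398 (36.0%) adjoined LaminB1 present in both genotypes and 263 (23.8%) were the end of constant H3K9me2. Another 6 edges (0.542%) were the end of both. By the number of sides that adjoined Prdm16 LaminB1, 213 regions (38.5%, 48.07 Mb, median 203 kb) had no such side. A further 282 regions (51.0%, 39.16 Mb, median 85.5 kb) had 1 such side, and 58 (10.5%, 11.37 Mb, median 132 kb) had 2. The distance to the nearest Prdm16 LaminB1 was 0 kb for 340 regions, had its upper quartile at 464 kb and reached 10564 kb, and 136 regions were over 500 kb away. Regions filled a median of 21.9% of the constant H3K9me2 region that held them, and 54 filled at least 90%. Of the 579 constant H3K9me2 regions, 341 held members.

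Of the 1106 edges, 837 were set by LaminB1 and had constant H3K9me2 just outside them by the rule, so coverage near the edges partly restates the choice of regions. At 50 kb outside, the bin was covered by H3K9me2 at 75.3%, 79.9% and 76.0% of edges in the Prdm16 libraries and at 84.3%, 79.1% and 80.1% in the WT libraries. At 200 kb the values were 58.9%, 63.4% and 61.5% in Prdm16 and 68.8%, 61.3% and 63.5% in WT. At both distances the groups overlapped. LaminB1 covered 36.0% of bins at 1 kb outside in Prdm16 cells and 59.8% in WT cells, and 23.2% in Prdm16 and 47.2% in WT at 200 kb. The values at 1 kb restate the kinds of edge given above. LaminB1 chose the regions, so this gap between genotypes is a description.

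**Figure D3:**
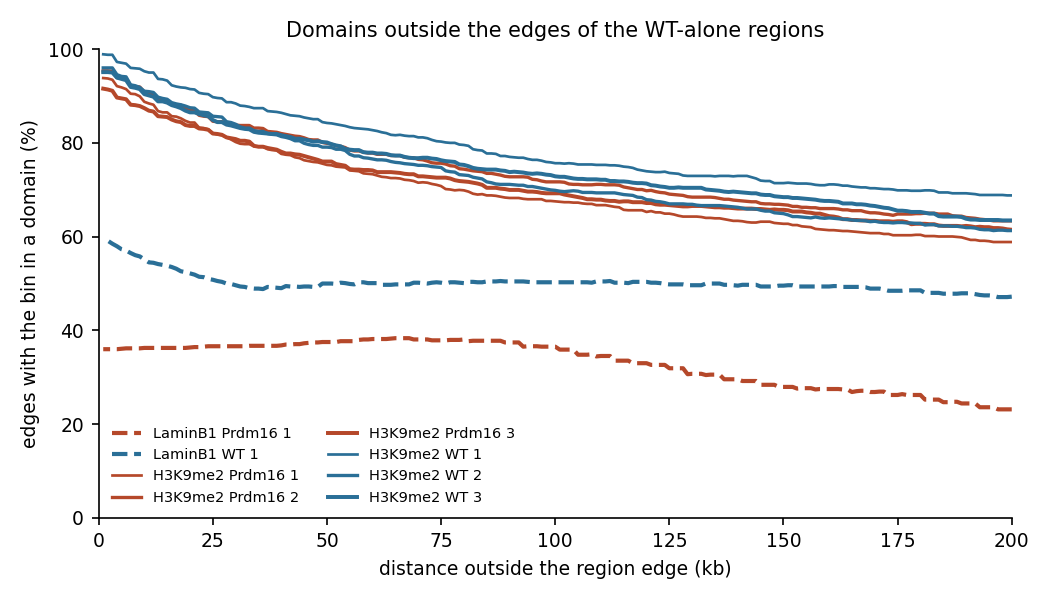
Percentage of region edges whose bin lay in a domain, by distance in kb outside the edge, for each library (Prdm16 in red, WT in blue; H3K9me2 solid, LaminB1 dashed). The H3K9me2 lines lie close together from above 90% at the edge to between 58.9% and 68.8% at 200 kb, while the Prdm16 LaminB1 line lies below the WT LaminB1 line throughout. LaminB1 chose the regions, so the gap between its lines is a description.

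H3K9me2 around the regions was compared across the 6 libraries. Of the 53.8 Mb of flank, only 18.4 Mb lay outside constant H3K9me2, and the rest was covered in every library by definition. Within 50 kb of the regions, H3K9me2 covered 82.7%, 85.9% and 82.2% of the flanking bins in Prdm16 libraries, against 90.2%, 85.8% and 85.5% in WT libraries. Prdm16 replicate 2 lay between the WT values and the other Prdm16 libraries lay below all WT libraries. The means were 83.6% ± 2.02 in Prdm16 and 87.2% ± 2.64 in WT (SD, n = 3 each), a difference of -3.59 percentage points with p = 0.3 by an exact two-sided permutation test. The smallest p this design allows is 0.1. Divided by each library's own autosomal percent, the flank value was 3.23 ± 0.745 in Prdm16 and 2.99 ± 0.668 in WT (SD, n = 3 each), a difference of 0.238 with the opposite sign (exact two-sided permutation p = 0.6). Counting only the 18.4 Mb outside constant H3K9me2, which alone can differ between libraries, coverage was 51.9% ± 5.91 in Prdm16 and 62.4% ± 7.74 in WT (SD, n = 3 each; exact two-sided permutation p = 0.3). The same kind of flank around constant H3K9me2 with LaminB1 in both genotypes had 59.5% ± 14.8 in Prdm16 and 73.9% ± 7.02 in WT (SD, n = 3 each; exact two-sided permutation p = 0.3). Around constant H3K9me2 with LaminB1 in neither it was 53.9% ± 13.4 in Prdm16 and 51.5% ± 4.83 in WT (SD, n = 3 each; exact two-sided permutation p = 0.9). By the rule, every flank bin outside constant H3K9me2 lacked the mark in some of the same 6 libraries. These flank comparisons are therefore not independent of the choice of regions. None of the flank differences passed its test, and whether they differed between the LaminB1 classes was not tested.

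The H3K9me2 domains that held the regions were longer than the libraries' domains at large. Their median length was 645, 786 and 744 kb in Prdm16 libraries and 960.0, 705 and 828 kb in WT libraries. Over all autosomal domains the medians were 315, 453 and 474 kb in Prdm16 and 378, 354 and 459 kb in WT. A long stretch shared by 6 libraries favours long domains by construction, so that gap is a description. Between genotypes the domains with regions averaged 725 kb ± 72.4 in Prdm16 and 831 kb ± 128 in WT (SD, n = 3 each), a difference of -106 kb with p = 0.3 by the exact two-sided permutation test. Leaving out WT replicate 1, the library with the longest H3K9me2 total, the difference was -41.5 kb, and the flank difference was -2.07 percentage points.

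Of the 10 longest regions, 5 touched a gene of the list of 105 neuronal adhesion and synapse genes (Lsamp, Astn1, Lrrtm4, Unc5d and Cntn3), as did 25 (4.52%) of all 553. Long regions and long genes meet more readily, and this was not tested. The longest, on chromosome 18 (chr18:27656001-29092000, 1436 kb), touched 11 annotated genes, none protein-coding, and lay between the end of a WT LaminB1 domain and LaminB1 of both genotypes. The next (chr16:40456001-41776000, 1320 kb) lay inside Lsamp, a cell adhesion gene of the IgLON family expressed in limbic neurons, in a WT LaminB1 domain of 2660 kb. Prdm16 LaminB1 covered 22.3% of that domain, beside the region's lower-coordinate edge. Lsamp had 6 counts over all 5 RNA libraries. The 1008 kb region at chr8:29564001-30572000 and the 664 kb region at chr8:28060001-28724000 came from the same WT LaminB1 domain of 3724 kb, of which Prdm16 LaminB1 covered 43.2%. The first held no protein-coding gene, and the second touched Unc5d, a netrin receptor gene.

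The region at chr1:157608001-158448000 (840 kb) touched Brinp2 and Astn1, genes of the nervous system, the second known for a role in neuronal migration. It filled 78.0% of its constant H3K9me2 region, and 15.3% of its WT LaminB1 domain kept Prdm16 LaminB1. The region at chr6:101940001-102572000 (632 kb) held Cntn3, the gene of contactin 3, a neuronal adhesion protein, and had Prdm16 LaminB1 on both sides. Both of the next regions had no Prdm16 LaminB1 in their WT domain.

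The region at chr18:15348001-16168000 (820 kb) was a whole WT LaminB1 domain, 2452 kb from the nearest Prdm16 LaminB1. It held Aqp4, a water channel gene of astrocytes, and Chst9, a sulfotransferase gene. The region at chr6:80780001-81520000 (740 kb) was also a whole WT domain, 672 kb away, and touched Lrrtm4, a synaptic adhesion gene. Among the 10 longest, chr18:25980001-26924000 (944 kb) and chr13:7296001-7884000 (588 kb) held no protein-coding gene. In the authors' scores per kb, these whole domains ranked low in the WT list, at percentile 3.55 for the Aqp4 domain and 2.94 for the Lrrtm4 domain. The domain at Brinp2 ranked at 53.5.

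**Figure D4:**
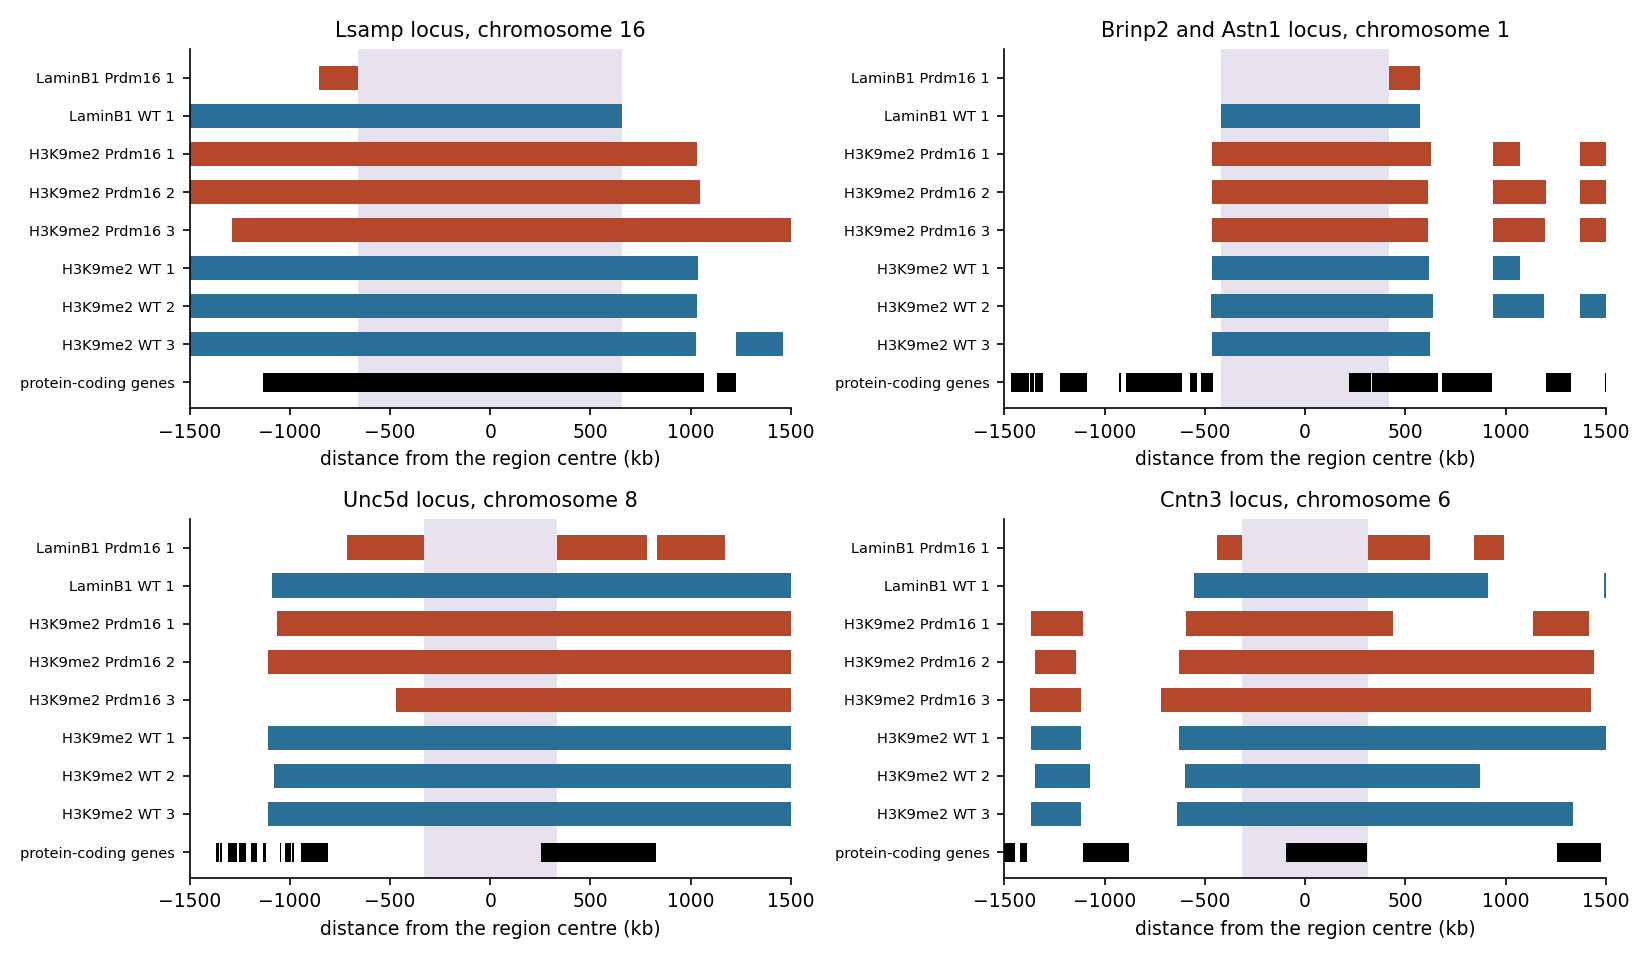
Domains of each library (rows) within 1500 kb of the centre of 4 of the 10 longest regions, by distance in kb, with Prdm16 in red, WT in blue, protein-coding genes in black and the region shaded. By the rule that chose the regions, all 6 H3K9me2 rows and the WT LaminB1 row span the shaded region in each panel, and the Prdm16 LaminB1 row lies outside it.

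Regions without any annotated gene numbered 86 (15.6%), and 287 touched no protein-coding gene. The 5 longest without a gene were chr7:77200001-77596000 (396 kb), chr3:22948001-23256000 (308 kb), chr6:111884001-112176000 (292 kb), chr3:42316001-42576000 (260.0 kb) and chr8:89948001-90208000 (260.0 kb). The first of them was a whole WT LaminB1 domain, 740.0 kb from Prdm16 LaminB1, and the other 4 adjoined it. At the other extreme, 107 regions lay wholly inside 1 protein-coding gene.

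Genes were sparse in the regions, and few passed the expression filter. A gene was counted in them where at least 50% of its body lay in their bins, which gave 930 genes, of which 204 were protein-coding, 328 lncRNA, 282 pseudogenes, 41 tRNA and 9 miRNAs. Protein-coding density was 2.07 per Mb in the regions, 2.53 in constant H3K9me2 with LaminB1 in both, 1.89 with LaminB1 in neither, and 9.23 outside constant H3K9me2. Of 596 genes with a row in the count table, 366 had no count in any of the 5 RNA libraries and 230 had at least 1. A total of 10 (1.68%) passed the expression filter, against 6 of 456 (1.32%) with LaminB1 in both, 66 of 750 (8.8%) with LaminB1 in neither and 38.6% outside constant H3K9me2. Over all gene types, this share was close to that with LaminB1 in both genotypes and below that with LaminB1 in neither. Among protein-coding genes alone it was 4.02% (8 genes), against 1.42% (2 genes) with LaminB1 in both. It was 19.5% with LaminB1 in neither and 61.0% outside constant H3K9me2. The filter drew on libraries of both genotypes, and differences between classes were not tested. Genes at 1 CPM or more numbered 11 and 16 in the libraries labelled Prdm16 and 10, 12 and 11 in those labelled WT.

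The tRNA genes were mostly 1 cluster: 39 lay in 1 region, within chr6:48186318-48363603, and all 39 carry the symbol of cysteine tRNAs (n-TCgca), which have no row in the count table. Among the protein-coding lists compared, sensory receptors had the most members in the regions, and olfactory receptors were also the longest list. Larger shares of serpins (8.06%) and ion channels (4.35%) lay in the regions. Of 1104 autosomal olfactory receptor genes 20 (1.81%) lay in the regions, and of 352 vomeronasal receptor genes 11 (3.12%), against 0.987% of all 20665 protein-coding genes. Constant H3K9me2 with LaminB1 in both genotypes held 9 olfactory and 1 vomeronasal receptor genes, and that with LaminB1 in neither held 20 and 3. These receptors detect odours in the nasal epithelium and pheromones in the vomeronasal organ. Those in the regions lay in clusters. A 169 kb region (chr7:105171001-105340000) held 7 receptors from Olfr685 to Olfr691, a 216 kb region (chr6:66556001-66772000) held the 5 genes Vmn1r33 to Vmn1r37, and neighbouring regions of 192 and 208 kb on chromosome 3 held Vmn2r1 to Vmn2r3 and Vmn2r4 to Vmn2r6. The 321 kb region at chr4:52611001-52932000 held Olfr272, Olfr273 and Olfr275, and the 168 kb region at chr15:98188001-98356000 held 5 olfactory receptors beside Zfp641, a zinc finger gene. Of the 20 olfactory receptors, 16 had no count in any RNA library and no member had more than 2 counts in the 5 libraries together. Of the 11 vomeronasal receptors 4 had none, and Vmn2r1 had the most at 21 counts. None of the 31 receptors passed the expression filter.

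Serpins, inhibitors of proteases, had 5 of 62 members (8.06%) in the regions, all on chromosome 13. Serpinb9c, Serpinb9d, Serpinb9e and Serpinb9f shared a 184 kb region (chr13:33152001-33336000) and Serpinb6d lay in another. Close copies in this cluster make single-gene counts uncertain, and none had more than 4 counts in all. Ion channels had 7 of 161 (4.35%). These were Trpa1, a channel that senses irritants, Trpv5 and Trpv6, epithelial calcium channels, the potassium channel genes Kcnb2, Kcnd3 and Kcnk10, and Kcnmb2, a potassium channel subunit. Each had at least 1 count, with the most for Trpa1 at 11 counts over the 5 libraries.

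Neuronal adhesion and synapse genes had 3 of 105 (2.86%), Lsamp, Ntm and Cntn3, and cadherins had 1 of 95, Cdh6, with 28 counts. Solute carriers had 3 of 376, clustered zinc fingers 2 of 391 and cytochrome P450 genes 1 of 101. No keratin (of 112), defensin (of 70), glutamate or GABA receptor (of 43) or UDP glucuronosyltransferase gene (of 22) lay in them. None of the 14 FAP identity genes, the 13 adipogenic, the 22 myogenic or the 20 fibrosis and matrix genes lay in the regions. Over all protein-coding genes the share was only 0.987%, so these empty lists are not read as a result about their genes. Of the myogenic genes 5, and of the adipogenic genes 1, lay in constant H3K9me2 with LaminB1 in neither genotype.

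Before the RNA comparison, the labels of the RNA libraries were checked. For all 6237 genes with an adjusted p in the authors' deposited table, the authors' p lay within 1% of the p recomputed with DESeq2 when the library labelled WT replicate 3 and the library labelled Prdm16 replicate 2 formed the Prdm16 pair. With the labels as given, 38 genes (0.609%) matched. RNA results below follow the labels, with log2 fold changes beside them for the library labelled WT replicate 3 exchanged with the library labelled Prdm16 replicate 1. Prdm16 itself, which lies outside constant H3K9me2, had 10.6 and 15.3 CPM in the libraries labelled Prdm16 and 16.4, 13.5 and 5.51 CPM in those labelled WT. Its log2 fold change was 0.13 (SE 0.47; edgeR adjusted p = 0.9996). The sources used here do not give which exons were deleted, so whole-gene counts do not check the deletion.

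RNA of the genes in the regions did not differ between genotypes past the threshold. By edgeR's quasi-likelihood test 0 of the 10 tested genes had an adjusted p under 0.05, as did 0 of all 15240 genes tested (0.0%). At an unadjusted p under 0.05 the count was 0 of 10, against 1.11% higher and 1.37% lower over all genes. None had both Prdm16 libraries above or below all WT libraries, which 8.83% (above) and 8.96% (below) of all genes did. With the 2 libraries exchanged, 1 gene was called higher and 0 lower, against 0.157% higher and 1.04% lower over all genes. With both left out, 0 genes were called, against 0.0924% higher and 0.521% lower over all genes. Without the expression filter (0.0311% higher and 0.0466% lower over all genes) or with DESeq2 (0.0% higher and 0.00311% lower), 0 genes of the regions were called. Of the 10, 8 had a positive log2 fold change, with a median of 0.43, against 50.1% positive and a median of 0.001 over all genes tested. With the 2 libraries exchanged 6 of 10 were positive with a median of 0.23, and with both left out 6 of 11 with a median of 0.27. Without Prdm16 replicate 1 the median was 0.01 (19 genes), without Prdm16 replicate 2 it was 0.13 (18 genes) and without WT replicate 2 it was 0.20 (11 genes). Without the expression filter 95 of 230 genes were positive, with a median of -0.53, and with DESeq2 96 of 230, with a median of -0.55. The sign of the median thus depended on the filter. The 10 are the genes that passed the filter, so their median does not describe the 930. In bulk RNA, fewer cells that express a gene and less RNA per cell cannot be told apart.

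Fbxw17 had 46.6 and 20.8 CPM in the Prdm16 libraries, against 42.2, 45.4 and 36.3 CPM in the WT libraries. The groups overlapped, with Prdm16 replicate 2 the lowest library and Prdm16 replicate 1 the highest (log2 fold change -0.29, SE 0.34, edgeR adjusted p = 0.9996). It lies wholly in a region, and had 1661 counts over the 5 libraries. Its log2 fold change was -0.64 with the 2 libraries exchanged.

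Hsd3b6 had 3.74 and 20.1 CPM in Prdm16 and 4.91, 1.72 and 29.9 CPM in WT. Prdm16 replicate 2 and WT replicate 3 were high and the other 3 libraries were low, so the groups overlapped (log2 fold change -0.07, SE 1.36, edgeR adjusted p = 0.9996). With the 2 libraries exchanged, the log2 fold change was 2.83 with an edgeR adjusted p of 0.00697, and with both left out it was 2.54. In the authors' deposited table it was 2.67, with a DESeq2 adjusted p of 3.41e-08 and the call Upregulated. The p-values of that table matched the exchanged grouping, so these are the same comparison and not a second result. Hsd3b6 has close paralogs beside it, so its counts are uncertain.

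Negr1 and Ntm, IgLON adhesion genes like Lsamp, extend beyond the regions, which held 57.8% and 55.4% of their bodies. Negr1 had 18.3 and 10.5 CPM in Prdm16 and 15.2, 9.6 and 5.88 CPM in WT, overlapping (log2 fold change 0.50, SE 0.45). Ntm had 1.63 and 2.84 CPM in Prdm16 and 0.481, 1.72 and 0.746 CPM in WT. Prdm16 replicate 2 was above all WT libraries and Prdm16 replicate 1 was just below the highest WT library (log2 fold change 1.21, SE 0.70). Both had an edgeR adjusted p of 0.9996. After the exchange the log2 fold change was -0.84 for Negr1 and 0.43 for Ntm.

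Chrna7 had 0.584 and 3.2 CPM in Prdm16 and 1.25, 0.0 and 0.84 CPM in WT (log2 fold change 1.29, SE 1.09). Mgam, which encodes an intestinal enzyme of starch digestion, had 0.233 and 1.42 CPM in Prdm16 and 0.192, 0.0 and 1.21 CPM in WT (log2 fold change 0.61, SE 1.29). In both genes Prdm16 replicate 2 was the highest library and Prdm16 replicate 1 lay among the WT values. After the exchange the log2 fold change was 1.53 for Chrna7 and 2.98 for Mgam, with edgeR adjusted p of 0.679 and 0.219.

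Cpa6, a secreted carboxypeptidase gene, had 3.62 and 1.07 CPM in Prdm16 and 1.25, 2.29 and 1.21 CPM in WT (log2 fold change 0.62, SE 0.66). Lratd1 had 2.57 and 2.49 CPM in Prdm16 and 3.08, 0.86 and 2.05 CPM in WT (log2 fold change 0.31, SE 0.61). The exchanged libraries gave -1.04 for Cpa6 and 0.03 for Lratd1. The groups overlapped in both genes, and with the labels as given the edgeR adjusted p was 0.9996 for each of these 4 genes.

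Fras1, an extracellular matrix gene, and Hecw1, a ubiquitin ligase gene, were among the genes with the highest mean CPM but did not pass the filter. Fras1 had 1.17 and 1.6 CPM in Prdm16 and 1.06, 0.573 and 0.56 CPM in WT. Hecw1 had 0.584 and 1.07 CPM in Prdm16 and 0.962, 0.717 and 2.33 CPM in WT. The remaining tested pair were pseudogenes. In the authors' deposited table, 4 genes of the regions had an adjusted p, of which 1 was called up and 0 down, where 1.97% of its 6237 genes were called up and 5.58% down.

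**Figure D5:**
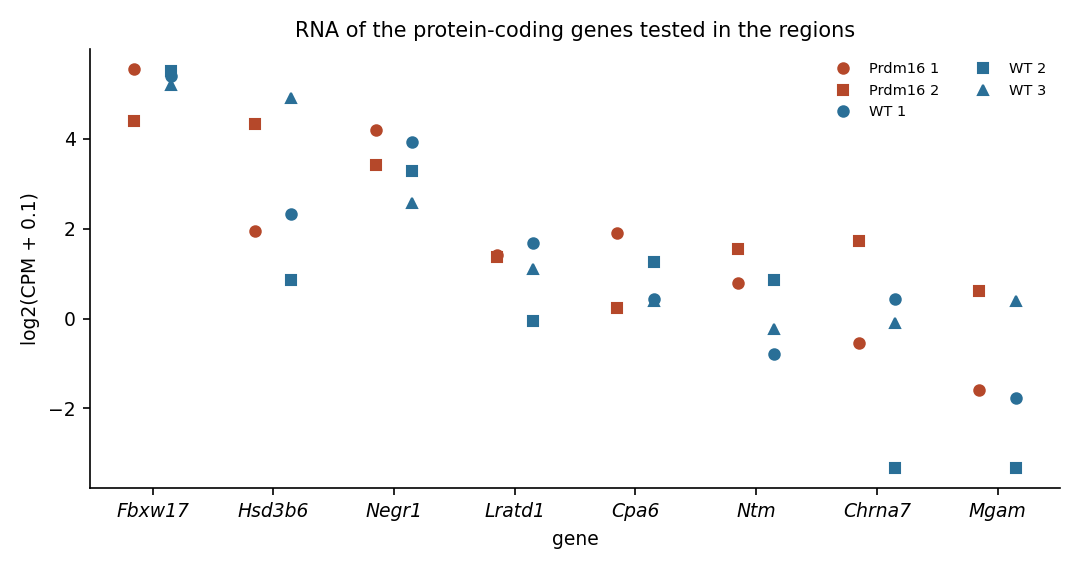
RNA level of the 8 protein-coding genes tested in the regions, as log2(CPM + 0.1), by library (Prdm16 red and left, WT blue and right within each gene). In each gene the Prdm16 and WT points overlap, and Hsd3b6 has Prdm16 2 and WT 3 high together.

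Counting every tested gene that a region touches, 40 genes with a median length of 402 kb could be compared, a set added after the values were seen. No gene of the 40 was called by edgeR (0.0% of all genes tested). Of the 40, 32 had a positive log2 fold change with a median of 0.34, 5 (12.5%) had both Prdm16 libraries above all WT libraries against 8.83% of all genes, and 0 lay below against 8.96%. With the 2 libraries exchanged 22 of the 40 were positive, and the median was 0.11. Without Prdm16 replicate 2 it was 0.07 (28 of 52 positive), and without WT replicates 2 and 3 in turn it was 0.22 and 0.23. The sign reversed without the expression filter, with a median of -0.14 (155 of 346 positive), and with DESeq2, with -0.22 (157 of 346). The 5 genes above all WT libraries were Grm7, Tenm4, Slc24a3, Etl4 and 9330182L06Rik, which are given because the count is small. Grm7, a metabotropic glutamate receptor gene, had 6.07 and 3.73 CPM in Prdm16 and 2.5, 1.0 and 1.21 CPM in WT (log2 fold change 1.62, SE 0.56, edgeR unadjusted p = 0.0193, adjusted p = 0.9996). It was the only gene of the 40 with an unadjusted p under 0.05, and with the 2 libraries exchanged its log2 fold change was -0.44. Tenm4, a teneurin adhesion gene, had 3.39 and 5.33 CPM in Prdm16 and 2.89, 2.15 and 1.59 CPM in WT (log2 fold change 0.97, SE 0.50, edgeR adjusted p = 0.9996). Regions covered 33.3% of the body of Grm7 and 27.6% of that of Tenm4.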

How the data were processed

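Domains of H3K9me2 and LaminB1 and RNA of FAPs were taken from the deposited files. Each deposited domain list gave coordinates and a score set by the authors, with no account of its making in the sources used here. Domain boundaries were multiples of 3 kb (H3K9me2) and 4 kb (LaminB1), so no domain was split by the 1 kb bins. The authors deposited raw read counts per gene, and a comparison table with a log2 fold change and p-values of Prdm16 over WT. Named in the submitters' processing notes are the builds GRCm38, mm10 and dm6, and the tools DESeq2 1.20, featureCounts, STAR 2.7 and Bowtie 1.2.2. The sources used here do not give the caller of the domains or whether counting used strand. The 8 input samples were not used here.

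Bins were intersected in Python 3.11.15 (pandas 2.3.3, numpy 2.4.6), and figures were made in matplotlib 3.10.9. RNA library depth was 8448654 and 5839587 counts for the libraries labelled Prdm16 and 10657791, 7053114 and 10284864 for those labelled WT, and low counts limit the precision of most genes here. Counts of 15240 genes passing edgeR's default expression filter were tested in R 4.3.3 by edgeR 4.0.16 (TMM scaling, robust quasi-likelihood, two-sided, Benjamini-Hochberg, threshold 0.05), with DESeq2 1.42.0 as an alternative, after a check on simulated data. Of the tested genes, 13771 (90.4%) were located by symbol or synonym in RefSeq GRCm38.p6. Values of the 6 H3K9me2 libraries were compared between genotypes by exact permutation, two-sided.

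Genes named were, of those in the regions, the 10 with the smallest p in each direction, the 10 with the highest mean CPM and members of the family lists. Regions named were the 10 longest and the 5 longest without a gene. Gm and Rik symbols and pseudogenes were not named under this rule. The regions, the gene lists and the checks were chosen with earlier results of these data known. Same-numbered H3K9me2 libraries did not deviate together (correlations 0.0207, -0.26 and 0.0929 for replicates 1, 2 and 3), so no block was used. Settings changed in turn were the required H3K9me2 libraries, the LaminB1 domains, region length, flank width, scaling, filter, tool, libraries left out or exchanged and the gene rule.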

Additional observations from a re-analysis of the deposited data

Results flagged for a closer look

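The X chromosome was left out of the regions, and 0.98 Mb of it met the same rule, which is listed because it lies outside the autosomes analysed. That was most of the 1.07 Mb of X with H3K9me2 in all 6 libraries and WT LaminB1. H3K9me2 covered 74.5, 40.7 and 12.8 Mb of X in Prdm16 libraries and 133.9, 73.0 and 111.7 Mb in WT libraries, so Prdm16 replicate 3 had the least to share. LaminB1 covered 25.4 Mb of X in Prdm16 cells and 46.8 Mb in WT cells.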

How the results depend on the processing

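With WT LaminB1 domains of the lowest scores removed until the covered length equalled that of Prdm16, the regions fell to 17.66 Mb in 95 regions (42.2% of WT LaminB1 in constant H3K9me2), and the reverse class grew to 36.01 Mb. The domains removed (842) had a median length of 296 kb and those kept (143) of 1780.0 kb, so this setting keeps mostly long domains. With WT domains at or above the median score they were 63.5 Mb in 351 regions (53.9%). The share was 62.0% with H3K9me2 in at least 5 of 6 libraries, 57.7% with Prdm16 LaminB1 extended by 20 kb and 62.4% for regions of at least 20 kb. Leaving out an H3K9me2 library gave 98.67 to 118.55 Mb, 553 to 630 regions and 59.8% to 65.6% (62.2% and 62.5% without WT replicates 3 and 2, 61.8% without Prdm16 replicate 3).

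Flank coverage reversed (0.238) when divided by each library's autosomal percent. Leaving out 1 library gave flank differences of -4.74 to -2.07 percentage points and domain length differences of -169 to -41.5 kb. With a replicate block the values were -3.59 percentage points (exact sign-flip permutation p = 0.5), -106 kb (p = 0.5) and a median RNA log2 fold change of 0.53, and the block changed no call. Among the genes of the regions, no RNA call was made in any setting except with the libraries exchanged (1 gene). The median RNA log2 fold change of genes in the regions was -0.53 with no filter and -0.55 with DESeq2, over 230 genes instead of 10, and -0.29 at equal LaminB1 length (1 gene). Without 1 library it was 0.01 (without Prdm16 replicate 1) to 0.39. Over genes touched by a region it was -0.14 with no filter and -0.22 with DESeq2, over 346 genes.

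Single genes reversed as follows on the log2 scale, the cause not tested. With the library labelled WT replicate 3 exchanged with that labelled Prdm16 replicate 1, Negr1 was -0.84, Cpa6 -1.04 and Hsd3b6 2.83, and with both left out they were -0.27, -0.73 and 2.54. Hsd3b6 was 1.46 with the block. Leaving out 1 library gave -0.30 to 2.08 for Chrna7, -0.57 to 1.22 for Cpa6, -1.04 to 1.46 for Mgam, -1.02 to 0.18 for Fbxw17, -0.02 to 0.74 for Lratd1 and -1.71 to 1.79 for Hsd3b6.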
